A study of Mus musculus with 6 samples.

Results

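Chromatin modifiers and remodellers are the enzymes and complexes that write, read and erase marks on histones and DNA and that move nucleosomes. The 103 genes described here were chosen by name. They come from families of histone demethylases (Kdm), histone methyltransferases (Kmt2 and Setd), histone deacetylases (Hdac) and sirtuins (Sirt). The rest are the Polycomb repressive complex 2 (Ezh, Suz12 and Eed), SWI/SNF-related proteins (Smarc), ARID proteins and CHD remodellers. DNA methylation enzymes (Dnmt and Tet), bromodomain proteins (Brd) and chromobox proteins (Cbx) complete the set. The names matched 106 of the 15450 genes in the table, and 3 of them, Kdm5c, Kdm5d and Kdm6a, all on the sex chromosomes, were left out. The name rule uses no measured value, and a name alone does not show that a member acts on chromatin.

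The cells were sorted from mouse retinas. Mice about 3 to 4 weeks of age at the start received, in the eye, an adeno-associated virus (AAV) carrying Sox11, a transcription factor of developing neurons (AAV-Sox11), or one carrying PLAP, the control cargo (AAV-Control). Both groups are labelled as 2 weeks after the virus. In both, the optic nerve, which holds the axons of retinal ganglion cells, was crushed 3 days before the retinas were taken. Retinas were dissociated with papain, and live cells that stained for the surface protein Thy1 were sorted. A library pools 3 retinas, one from each of 3 mice, and libraries A, B and C of both groups share a preparation day by letter. The labels say that mice were assigned pseudo-randomly from litters and roughly balanced for age and sex, and they do not give the promoter of the virus. Errors are spreads between the 3 pools of each group.

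Histone tails carry acetyl and methyl groups that change how tightly DNA is packed and which proteins bind it. Deacetylases and the Polycomb repressive complex 2 are best known for keeping genes silent, whereas the Kmt2 methyltransferases mark active promoters and enhancers. The SWI/SNF, ISWI and CHD families use ATP to slide or evict nucleosomes, and in the brain the subunits of SWI/SNF are exchanged as progenitors become neurons. In injured neurons, deacetylases and the DNA demethylating TET enzymes have been studied for their part in axon regrowth.

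Values below are scaled values, meaning the adjusted whole numbers that the authors deposited multiplied by their factor for each library and summed over the transcripts of a gene. Library totals before the factor ran from 10747985 to 11546892, a range that is narrow but not a read depth, since the values had been adjusted. Replicate spread along 1 of the 5 directions in which 6 libraries can differ had been taken out of the values before deposit, and AAV-Sox11 B carried 57.7% of that direction. The targeted gene, Sox11, had 179, 234 and 284 in AAV-Sox11 A, B and C, against 131, 111 and 100.3 in AAV-Control. Its groups did not overlap, and its log2 fold change was 1.003 ± 0.197 (SE of the limma fit, adjusted p = 0.0504). All 9 listed markers of retinal ganglion cells were measured, with sums of 7869 to 10430 in AAV-Sox11 and 6650 to 10110 in AAV-Control, while the 8 rod markers summed to 23600 to 43210 in AAV-Sox11 and 37810 to 59860 in AAV-Control, so the libraries hold rod RNA too. Within the ganglion cell list, Pou4f2 and Slc17a6 were higher in every AAV-Sox11 library (log2 fold changes 1.47 ± 0.35 and 0.99 ± 0.26, adjusted p = 0.0669 and 0.0802, or 0.0383 and 0.0577 with the replicate block), Nefl and Nefm were at -0.33 ± 0.19 and -0.39 ± 0.22 with overlap, and their part in the chromatin gene values was not tested. In sorted pools, fewer cells of a type and less RNA per cell cannot be told apart.

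No chromatin gene passed an adjusted p of 0.05 in the limma fit, in either direction. Over all 15450 genes, 2.32% passed that test, 0.796% higher and 1.52% lower in AAV-Sox11. At an unadjusted p under 0.05 there were 16 chromatin genes, 12 higher and 4 lower, or 15.5% of the members against 24.3% of all genes. With the replicate letter as a block, again 0 members passed, against 4.77% of all genes. The 3 AAV-Sox11 and 3 AAV-Control values did not overlap for 34 members, 25 of them higher and 9 lower in AAV-Sox11. That is 33% of members, and among all genes the groups did not overlap for 30.7% (16.2% higher and 14.4% lower).

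The differences were small. The median absolute log2 fold change was 0.17 over the chromatin genes and 0.23 over all genes, and 99 of 103 members (96.1%) lay within 0.5 of 0, against 80.2% of all genes. The median log2 fold change was 0.08 for the members and 0.03 for all genes, and 68 members (66%) lay above 0, against 53.8% of all genes. All genes were not matched to the members for level. The 92 partner genes described below were alike in these measures. Of them, 94.6% lay within 0.5 of 0 and 68.5% above 0, with a median of 0.12 and a median absolute value of 0.17. Fold changes of the members ran from -0.68 for Sirt4 to 0.59 for Kdm8. Under the other settings tried, the members' median ran from 0.02 with libraries scaled by their total, where the median of all genes was -0.03, to 0.13 with protein-coding transcripts only, where that of all genes was 0.09.

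**Figure D1:**
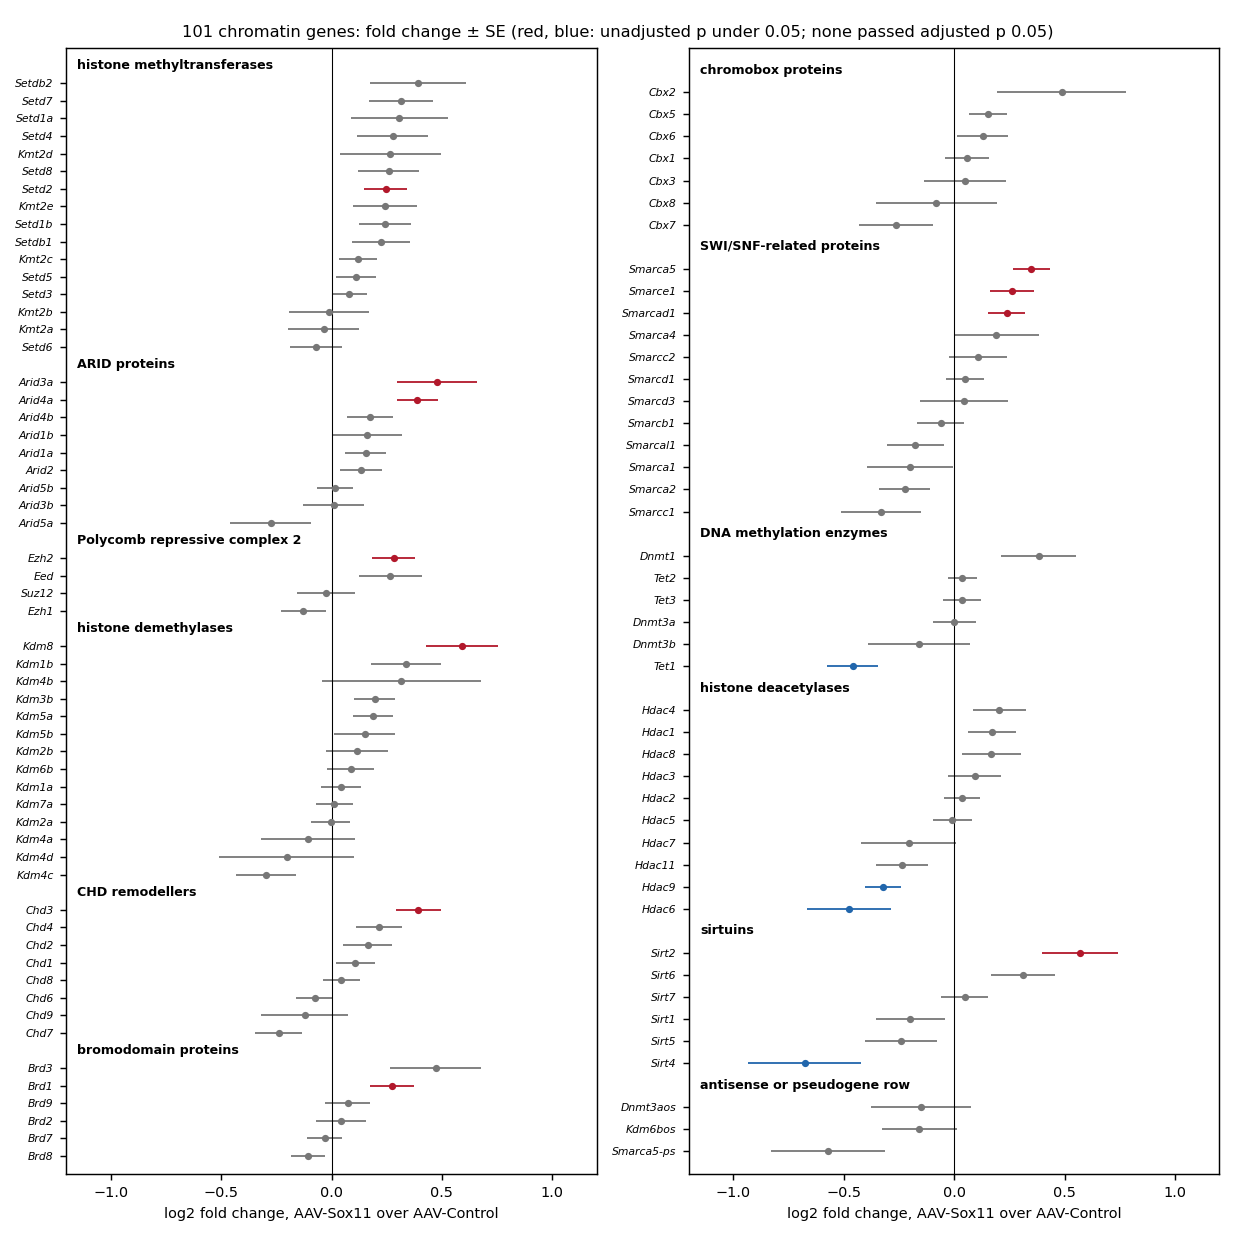
Log2 fold change of AAV-Sox11 over AAV-Control for 101 of the chromatin genes, with its standard error from the limma fit (n = 3 libraries per group), grouped by class with the highest class median first. Red and blue points have an unadjusted p under 0.05, higher or lower in AAV-Sox11, and no gene passed an adjusted p of 0.05.

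Remodelling enzymes and their relatives had fold changes in both directions. Smarca5, the ISWI motor that spaces nucleosomes (chr8:80698507-80739497, minus strand, GRCm38), had 939, 932 and 863 in AAV-Sox11 A, B and C, against 739.8, 727 and 679 in AAV-Control. Every AAV-Sox11 library was above every AAV-Control library. The means were 911 ± 42.1 in AAV-Sox11 and 715 ± 31.9 in AAV-Control (SD, n = 3 each), a log2 fold change of 0.35 ± 0.08 with an adjusted p of 0.0674 by limma, the smallest of any member. The gene Gm45872 lies on the same strand and shares exon bases with Smarca5, so their reads may be shared. Smarca5-ps, a pseudogene row on another chromosome, had 32.3, 34.3 and 49.3 in AAV-Sox11, against 68.0, 43.1 and 62.7 in AAV-Control, with overlap (log2 fold change -0.57 ± 0.26). Smarcad1, a remodeller linked to upkeep of silent chromatin, had 2295, 2480 and 2455 in AAV-Sox11, against 1941, 2228 and 1972 in AAV-Control. The groups did not overlap, and its adjusted p was 0.143.

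Smarce1, a DNA-binding subunit of SWI/SNF, had 1231, 1344 and 1345 in AAV-Sox11, against 1212, 1094 and 977 in AAV-Control. AAV-Sox11 A was close to AAV-Control A, and the log2 fold change was 0.26 ± 0.10 (adjusted p = 0.169 by limma). The core ATPases of SWI/SNF pointed in opposite directions. Smarca4 (BRG1) had a log2 fold change of 0.19 ± 0.19 and Smarca2 (BRM) one of -0.22 ± 0.11, both beyond an adjusted p of 0.2. Smarca2 was lower in all 3 AAV-Sox11 libraries, with 193, 182 and 171 against 218, 219 and 202 in AAV-Control, and Smarca4 overlapped. Smarcc1, a scaffold subunit, had the lowest fold change of the class, -0.33 ± 0.18, with overlapping groups. The 12 members of the class had a median of 0.05, and the 9 ARID proteins one of 0.15.

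Arid4a, a subunit of the Sin3 deacetylase complex (chr12:71015990-71098592, plus strand), had 1481, 1572 and 1444 in AAV-Sox11 A, B and C, against 1116, 1272 and 1055 in AAV-Control. The lowest AAV-Sox11 library was above the highest AAV-Control library, and the means were 1499 ± 65.9 in AAV-Sox11 and 1148 ± 112 in AAV-Control (SD, n = 3 each). The log2 fold change was 0.39 ± 0.09, with an adjusted p of 0.0682 by limma. Without AAV-Control B it was 0.47 with an adjusted p of 0.041. This was the only setting tried in which a chromatin gene passed the test in the higher direction. In that setting 339 of all genes passed higher and 406 lower, against 123 and 235 in the fit with all libraries. Arid3a, a DNA-binding protein, was higher in all 3 AAV-Sox11 libraries at low values, 125, 109 and 86.5 against 81.5, 73.5 and 72.4 in AAV-Control (log2 fold change 0.48 ± 0.18, adjusted p = 0.166). Arid1a, the large SWI/SNF subunit, was higher by 0.15 ± 0.09 without overlap, and its relative Arid1b, which rests on 1 transcript that is not annotated as protein coding, by 0.16 ± 0.16 with overlap. Arid5a had the lowest log2 fold change of the class, -0.28 ± 0.18.

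Chd3, a motor of the NuRD complex, which joins remodelling and deacetylation, had 289, 304 and 303 in AAV-Sox11, against 222, 238 and 221 in AAV-Control. This separation was wide next to the spread within groups (SD 8.50 in AAV-Sox11 and 9.64 in AAV-Control, n = 3 each), and the log2 fold change was 0.39 ± 0.10 (adjusted p = 0.0767). Its relative Chd4 was also higher without overlap, with a log2 fold change of 0.22 ± 0.10. Protein-coding transcripts held 34.15% of the Chd3 value and 22.1% of the Chd4 value. The coding Chd3-202 was at 0.32 ± 0.15 without overlap, while the coding Chd4-204 overlapped at 0.07 ± 0.23. Chd7, mutated in CHARGE syndrome in humans, was the lowest of the 8 CHD genes. It had 505, 513 and 544 in AAV-Sox11, against 691, 552 and 608 in AAV-Control (log2 fold change -0.24 ± 0.11, adjusted p = 0.22). AAV-Sox11 C and AAV-Control B lay close together. Chd6, whose level per kb summed over its transcripts was the highest of all members, did not separate the groups (log2 fold change -0.08 ± 0.08).

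**Figure D2:**
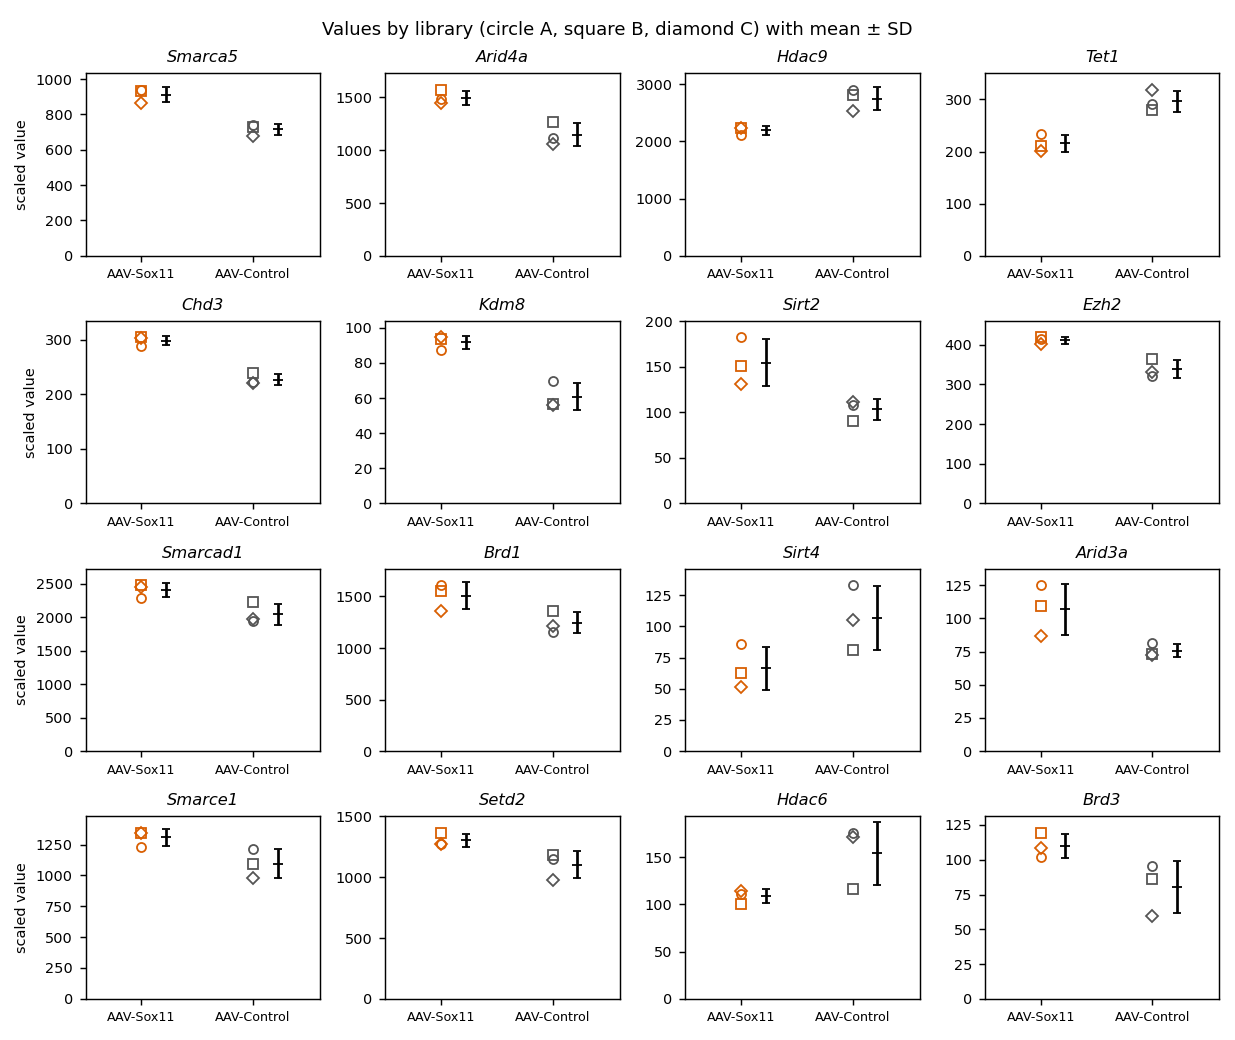
Scaled values by library for 16 members with small p, with AAV-Sox11 left and AAV-Control right, circles for library A, squares for B and diamonds for C, and the mean ± SD beside them (n = 3 each). Smarca5, Arid4a, Chd3 and Kdm8 are higher and Hdac9 and Tet1 lower in all 3 AAV-Sox11 libraries, while Brd1 and Sirt4 overlap.

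Histone deacetylases leaned no one way, with 5 members above 0, 5 below and a median log2 fold change of 0.01. Hdac9, a class IIa deacetylase that binds MEF2 factors (chr12:34047580-34917095, minus strand), had 2107, 2239 and 2232 in AAV-Sox11 A, B and C, against 2903, 2820 and 2526 in AAV-Control. Each AAV-Sox11 library was below each AAV-Control library, with means of 2193 ± 74.3 in AAV-Sox11 and 2750 ± 198 in AAV-Control (SD, n = 3 each). The log2 fold change was -0.32 ± 0.08 and the adjusted p was 0.0726 by limma. When libraries were scaled by their totals, which put the median log2 fold change of all genes at -0.03 in place of 0.03, Hdac9 became -0.39 with an adjusted p of 0.034, the only chromatin gene to pass in the lower direction under any setting. Its single transcript in the table is protein coding.

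Hdac6, a mainly cytoplasmic enzyme that removes acetyl groups from tubulin, had 110, 101 and 115 in AAV-Sox11, against 176, 116 and 171 in AAV-Control. AAV-Control B was close to the AAV-Sox11 libraries, and the log2 fold change was -0.48 ± 0.19 (adjusted p = 0.181). Only 10.3% of the Hdac6 value rests on protein-coding transcripts, and the gene is on chromosome X. Hdac5, which shuttles out of the nucleus in injured neurons, had close to the same summed level in both groups, 570.1 ± 36.0 in AAV-Sox11 and 573 ± 20.7 in AAV-Control (SD, n = 3 each). Only 10.83% of that value rests on its 2 protein-coding transcripts. Of these, Hdac5-201 had means of 29.53 in AAV-Sox11 and 29.45 in AAV-Control. Hdac5-203 had 15.74 in AAV-Sox11 and 49.13 in AAV-Control, without overlap. The class I enzymes Hdac1, Hdac2 and Hdac3 had log2 fold changes of 0.17, 0.04 and 0.09, and Hdac1 alone of them did not overlap between groups. Hdac4, another class IIa enzyme, was highest of the class at 0.20 ± 0.12, with overlapping groups. Among the 6 sirtuins, a family of NAD-dependent enzymes, the median was -0.08. Sirt2 and Sirt4 are the extremes of the class, at 0.57 ± 0.17 and -0.68 ± 0.26, and neither has a protein-coding transcript in the table. Sirt1, a nuclear sirtuin, overlapped between groups with a log2 fold change of -0.20 ± 0.16.

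The 16 histone methyltransferases had the highest class median, 0.24, with 13 members above 0 and a range of -0.07 to 0.39. Setd2, the enzyme that trimethylates histone H3 along transcribed gene bodies, was the only one with an unadjusted p under 0.05. It had 1273, 1366 and 1271 in AAV-Sox11, against 1152, 1182 and 976 in AAV-Control (log2 fold change 0.24 ± 0.10, adjusted p = 0.178). Setd7, which has the highest level per kb of the class, had 5852, 6717 and 6071 in AAV-Sox11, against 5625, 5581 and 3961 in AAV-Control. AAV-Control C was well below the other libraries for Setd7, and the adjusted p was 0.233. Setdb2 had the highest log2 fold change of the class, 0.39 ± 0.22, at values under 70. Kmt2a (MLL1), by contrast, had 96.8 ± 12.2 in AAV-Sox11 and 98.9 ± 7.30 in AAV-Control (SD, n = 3 each), a log2 fold change of -0.03 ± 0.16. Setd6 was lowest in the class at -0.07 ± 0.12.

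Among the 14 histone demethylases the median was 0.10, and Kdm8 had the highest fold change of any member. Kdm8 (JMJD5, chr7:125444676-125462269, plus strand) had 87.6, 93.5 and 94.5 in AAV-Sox11, against 69.9, 56.9 and 56.0 in AAV-Control. The groups were well apart, with a log2 fold change of 0.59 ± 0.16 and an adjusted p of 0.0903. Kdm6b (JMJD3), which removes the Polycomb mark from histone H3, had 1702 ± 51.3 in AAV-Sox11 and 1612 ± 218 in AAV-Control (SD, n = 3 each), a log2 fold change of 0.09 ± 0.11. Kdm6bos, an antisense RNA, overlaps its exons. Kdm4c had the lowest fold change, -0.30 ± 0.14, in groups that did not overlap. The most abundant demethylase per kb, Kdm3b, had 9154, 9290 and 8247 in AAV-Sox11, against 8079, 8250 and 7003 in AAV-Control, with an adjusted p of 0.245.

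In the Polycomb repressive complex 2, which trimethylates histone H3 at silent genes, neither of the alternative catalytic subunits passed the test. Ezh2, the form typical of dividing cells, had 415, 418 and 401 in AAV-Sox11 A, B and C, against 321, 364 and 332 in AAV-Control (log2 fold change 0.28 ± 0.10, adjusted p = 0.136). Ezh1, the form kept in many non-dividing cells, had 224, 233 and 243 in AAV-Sox11, against 261, 246 and 258 in AAV-Control (log2 fold change -0.13 ± 0.10). The groups did not overlap for either gene. The lower Ezh1 sum came from the processed transcripts Ezh1-205 and Ezh1-208, at -0.78 ± 0.20 and -1.18 ± 0.31, while the coding Ezh1-201 and Ezh1-202 overlapped at -0.02 ± 0.13 and 0.17 ± 0.26, and with protein-coding rows only the sign of Ezh1 turned (0.0085). The log2 ratio of Ezh2 to Ezh1 was 0.82 ± 0.09 in AAV-Sox11 and 0.41 ± 0.14 in AAV-Control, with no overlap. This ratio is given without a test, since the pair was picked after the values were seen. None of the 5 Ezh2 rows in the table is annotated as protein coding, so the ratio could not be formed from coding rows. Dividing-cell markers summed to 2248 to 3831 in AAV-Sox11 and 998 to 3274 in AAV-Control, and their part in the Ezh2 values was not tested. The core subunits Suz12 and Eed overlapped, at -0.03 ± 0.13 and 0.27 ± 0.14.

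DNA methylation enzymes had a median of 0.02. Tet1, which oxidises methylcytosine (chr10:62804570-62908996, minus strand), had 235, 211 and 201 in AAV-Sox11, against 290, 280 and 318 in AAV-Control. The groups did not overlap, and the means of 216 ± 17.2 in AAV-Sox11 and 296 ± 19.7 in AAV-Control (SD, n = 3 each) gave a log2 fold change of -0.46 ± 0.12 with an adjusted p of 0.0733. Its relatives Tet2 and Tet3 did not separate the groups, at 0.04 ± 0.07 and 0.03 ± 0.09, although Tet2 is among the 6 highest members per kb. Dnmt1, the maintenance methyltransferase, was higher in all 3 AAV-Sox11 libraries, with 93.8, 97.6 and 93.5 against 62.1, 85.3 and 72.4 in AAV-Control (log2 fold change 0.38 ± 0.17, adjusted p = 0.22). Dnmt3a, a de novo methyltransferase, was level, with 503 ± 35.9 in AAV-Sox11 and 502 ± 26.7 in AAV-Control (SD, n = 3 each). Dnmt3aos, an antisense RNA that shares exon bases with it, overlapped between groups as well, and without a known strand setting their reads cannot be told apart.

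Readers of histone marks include the chromobox proteins, with a median log2 fold change of 0.09, and the bromodomain proteins, with one of 0.07. Cbx2 had the highest fold change of the 8 chromobox genes, 0.49 ± 0.29, and Cbx7 the lowest, -0.27 ± 0.17. Cbx5 (HP1 alpha) was higher by 0.15 ± 0.09 with overlapping groups. Among the 7 bromodomain proteins, Brd1 had 1610, 1554 and 1357 in AAV-Sox11, against 1159, 1359 and 1216 in AAV-Control, which overlap at their edge (log2 fold change 0.28 ± 0.10, adjusted p = 0.151). Brd3 was the highest of the class, 0.47 ± 0.21, and has no protein-coding transcript in the table. Brd8 was lowest in the class, with a log2 fold change of -0.11 ± 0.08, and its groups did not overlap.

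**Figure D3:**
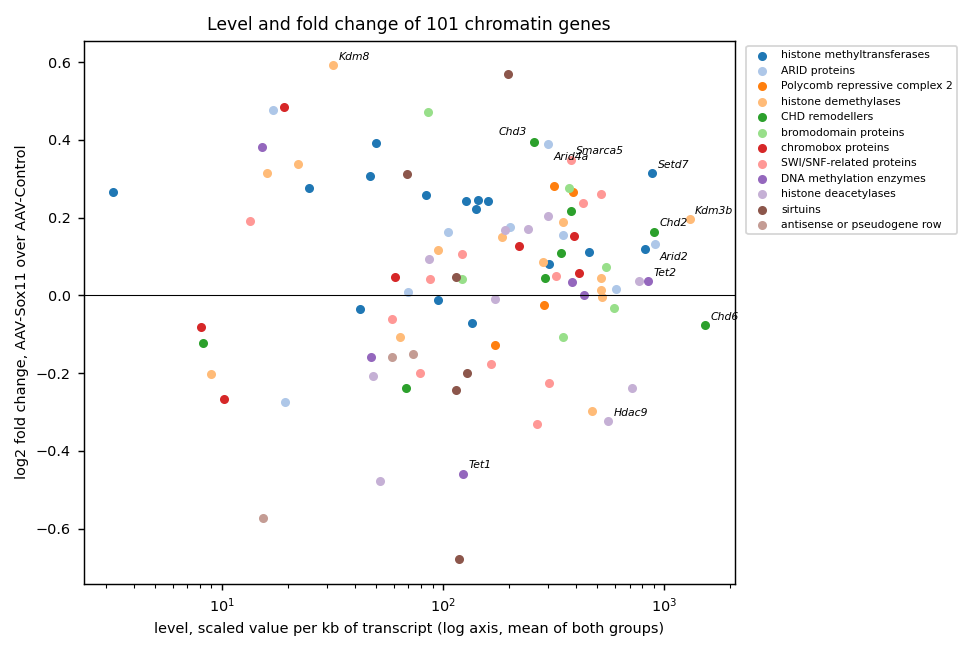
Level of 101 of the chromatin genes (scaled value per kb summed over all transcripts, short ones weighing more, mean of both groups, log axis) against their log2 fold change, coloured by class, with the 6 highest levels and 6 genes of small p labelled. The 6 genes with the highest levels per kb (Chd6, Kdm3b, Arid2, Chd2, Setd7 and Tet2) all lie between -0.08 and 0.31.

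Per kb, summed over the transcripts of a gene, Chd6 had the highest level, 1459 in AAV-Sox11 and 1612 in AAV-Control. Short transcripts weigh more in this sum. The processed transcript Chd6-210, of 646 bases, had 351 in AAV-Sox11 and 383.5 in AAV-Control. The coding Chd6-201, of 10515 bases, had 5341 in AAV-Sox11 and 5555 in AAV-Control. The rank of Chd6 by its coding transcripts was not determined. Kdm3b, on 1 protein-coding transcript, came second with 1398 in AAV-Sox11 and 1222 in AAV-Control. Next came Arid2, a SWI/SNF subunit, and the remodeller Chd2, with log2 fold changes of 0.13 ± 0.09 and 0.16 ± 0.11. Kmt2d, a methyltransferase of enhancers, was lowest per kb, with 3.54 in AAV-Sox11 and 2.93 in AAV-Control. Within groups, the median SD of log2 values was 0.096 in AAV-Sox11 and 0.132 in AAV-Control for the members, against 0.142 in AAV-Sox11 and 0.228 in AAV-Control for all genes.

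Pairs of related genes were compared as ratios, which cancel library scaling. Smarca5 to Smarca1, the ISWI motors, had a log2 ratio of 3.51 ± 0.12 in AAV-Sox11 and 2.96 ± 0.30 in AAV-Control, without overlap. From protein-coding rows only, this ratio was 3.49 ± 0.15 in AAV-Sox11 and 3.39 ± 0.31 in AAV-Control, and the groups overlapped. The lower Smarca1 sum came from the processed transcript Smarca1-204 (-1.27 ± 0.33), while the coding Smarca1-202 was at 0.30 ± 0.22. Dnmt1 to Dnmt3a had -2.39 ± 0.10 in AAV-Sox11 and -2.77 ± 0.15 in AAV-Control, also without overlap. With coding rows only, it was -1.07 ± 0.08 in AAV-Sox11 and -1.50 ± 0.28 in AAV-Control. The groups then stayed apart only narrowly, with -1.14 in AAV-Sox11 A and -1.18 in AAV-Control B. Coding rows held 40.6% of the Dnmt3a value. Smarca4 to Smarca2, Smarcc1 to Smarcc2, Chd3 to Chd4, Hdac1 to Hdac2 and Smarcd1 to Smarcd3 overlapped between groups. These pairs were chosen after the values were seen and carry no test, and the ratios are not corrected for transcript length, so only their difference between groups can be read.

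**Figure D4:**
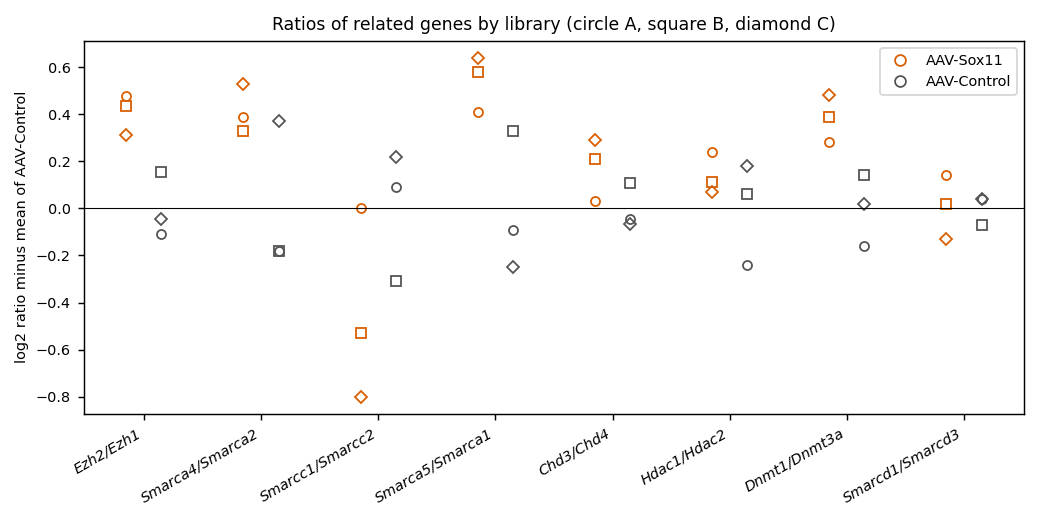
Log2 ratio of related genes in each library, less the mean of AAV-Control, with AAV-Sox11 left of AAV-Control at each pair (circle A, square B, diamond C). Ezh2/Ezh1, Smarca5/Smarca1 and Dnmt1/Dnmt3a are higher in all 3 AAV-Sox11 libraries when all transcripts are summed, the Smarca5/Smarca1 ratio overlaps with coding rows only, and the other 5 pairs overlap.

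The 103 genes came from 289 transcripts in the table, of which 119 are annotated as protein coding, 110 as retained introns and 42 as processed transcripts in GENCODE M21. For 21 genes (20.4%) no protein-coding transcript was listed, and 32 rest on 1 transcript. A limma fit of each transcript, added after the data had been seen, called 1 of the 289 rows (0.346%, against 1.98% of all 26334 named transcripts). In the authors' deposited table, 5 of the 289 had an FDR under 0.05 and all 5 were lower (1.73%, against 6.83% of all named transcripts, 1.95% higher and 4.88% lower). They were Hdac5-203, Smarca1-204, Kdm7a-202, Ezh1-208 and Brd2-208, and all but Kdm7a-202 had values below 70 in every library. Hdac5-203, one of the 2 protein-coding Hdac5 transcripts, had 15.6, 12.5 and 19.1 in AAV-Sox11, against 54.4, 24.5 and 68.5 in AAV-Control (log2 fold change -1.48 ± 0.38, adjusted p = 0.0799 by limma), while the sum over its 6 transcripts was level. With the replicate block, Kdm7a-202, Hdac5-203 and Smarca1-204 were called of the 289, all 3 lower. The share of all named transcripts called with the block was not determined, and over all genes it was 4.77%.

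Kdm7a-202, the transcript called in both, is a processed transcript of the histone demethylase gene Kdm7a. It had 167, 152 and 135 in AAV-Sox11 A, B and C, against 227, 273 and 262 in AAV-Control, and the groups were well apart. The log2 fold change was -0.75 ± 0.14, with an adjusted p of 0.0418 by limma, and the authors' deposited table has an FDR of 0.0119 for it. The protein-coding Kdm7a-201 had 4534, 4571 and 4112 in AAV-Sox11, against 4231, 4597 and 3970 in AAV-Control, a log2 fold change of 0.05 ± 0.09 (adjusted p = 0.794). The coding transcript, which holds most of the gene's value, overlapped between groups. The call of Kdm7a-202 did not hold with the removed direction as a covariate (adjusted p = 0.112), with a sex index of Xist and Y-linked genes as one (0.22) or when any library was left out (0.058 to 0.219).

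Kdm7a-202 has 11 exons and 3077 bases (chr6:39142110-39154682, minus strand, GRCm38), and 491 of its bases lie outside the exons of the coding transcript. They form its first exon, chr6:39154192-39154682, inside intron 10 of Kdm7a-201, and the other 2586 bases are shared. Reads over the shared bases cannot be assigned to one of the transcripts from the sequence alone. The stretch below shows the end of the part that only Kdm7a-202 has, chr6:39154192-39154291 in capitals, running into the first shared bases, chr6:39152853-39152902 in lower case, as GENCODE M21 gives them.
Kdm7a-202: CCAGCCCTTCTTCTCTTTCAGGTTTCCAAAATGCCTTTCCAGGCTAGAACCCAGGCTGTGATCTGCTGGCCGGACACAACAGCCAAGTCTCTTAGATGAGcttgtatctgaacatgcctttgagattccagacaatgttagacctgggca

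**Figure D5:**
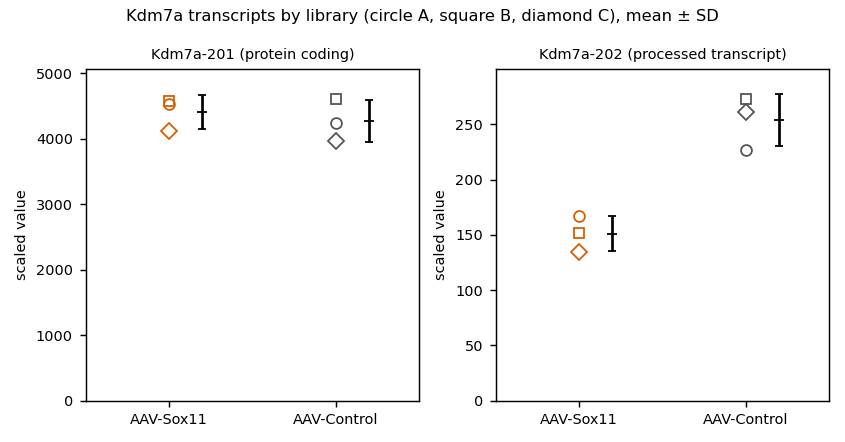
Scaled values by library of the protein-coding transcript Kdm7a-201 and the processed transcript Kdm7a-202, with AAV-Sox11 left and AAV-Control right and mean ± SD beside them (n = 3 each). Kdm7a-202 has 135 to 167 in AAV-Sox11 and 227 to 273 in AAV-Control, and Kdm7a-201 overlaps.

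Partner proteins of these complexes were taken from a list of 102 genes, of which 92 were in the table and the other 10 were not analysed here. Of the 92, 3 passed an adjusted p of 0.05 (3.26%, against 2.32% of all genes), 1 higher and 2 lower, and 14 had an unadjusted p under 0.05 (15.2%, against 24.3% of all genes). Mbd2, which reads methylated DNA for the NuRD complex, rose in AAV-Sox11, with 1329, 1380 and 1240 against 829, 1026 and 862 in AAV-Control (log2 fold change 0.54 ± 0.10, adjusted p = 0.0465). Bcl7a, a SWI/SNF subunit, fell, with 663, 616 and 649 in AAV-Sox11 against 923, 863 and 1035 in AAV-Control (-0.55 ± 0.10, adjusted p = 0.0375). The groups did not overlap for either gene. The corepressor Rcor2 fell as well (-1.54 ± 0.28, adjusted p = 0.0425), on a transcript not annotated as protein coding, at values of 5.22 to 8.04 in AAV-Sox11 and 16.5 to 23.5 in AAV-Control. All 3 calls were lost with the removed direction or the sex index as a covariate and on leaving out any AAV-Sox11 library, with adjusted p-values of up to 0.257. On leaving out an AAV-Control library, Rcor2 was lost each time and Mbd2 and Bcl7a without A or C, and Mbd2 was also lost with library total scaling.

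Bcl11b, a transcription factor that is part of SWI/SNF in neurons and lymphocytes, missed the threshold and is named after its values were seen. It had 385, 500.5 and 517 in AAV-Sox11, against 57.3, 190 and 138 in AAV-Control, a log2 fold change of 2.01 ± 0.40 (adjusted p = 0.0524, or 0.0285 with the replicate block). It is the largest difference in the list. Subunits that mark the change of SWI/SNF between progenitors and neurons did not pass: Actl6a (BAF53A) was at 0.36 ± 0.14 (adjusted p = 0.18), Phf10 at 0.12 ± 0.09, Dpf1 at 0.27 ± 0.42 and Dpf3 at -0.21 ± 0.14. The acetyltransferases Ep300, Crebbp and Kat2b, which oppose the deacetylases, were at 0.26 ± 0.09, 0.19 ± 0.09 and 0.13 ± 0.08. Ep300 did not overlap between groups, and its adjusted p was 0.142.

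Marker sums of other retinal cells overlapped between groups for most types. Bipolar cell markers, 6 of 7 measured, summed to 6027 to 6994 in AAV-Sox11 and 7142 to 9759 in AAV-Control, without overlap, although each of the 6 overlapped on its own and Prkca, at 5237 to 5807 in AAV-Sox11 and 5392 to 6413 in AAV-Control, made up most of the sum. The other sums overlapped, those of the 3 oligodendrocyte markers only at the edge (626.5 to 693.8 in AAV-Sox11 and 693.3 to 783.5 in AAV-Control). No marker in the table was at 0. Of all markers only Slc6a9, an amacrine cell transporter, passed the test, lower in AAV-Sox11. The part of cell mixture in the chromatin gene values was not tested. Xist minus Y-linked levels, a measure of the sex of the pooled mice, ran from -0.18 to 1.40 in AAV-Sox11 and from -1.79 to -0.23 in AAV-Control, without overlap, and its part in these values was not tested beyond the covariate fit.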

How the data were processed

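RNA-seq of polyadenylated RNA was made with low-input kits, per the labels' protocols. CASAVA 1.8.2, edgeR without a version and the mm10 build appear in the submitters' processing notes; aligner, counter, strand setting and annotation, not given in the sources used here, could shift reads between overlapping transcripts. A table of 26691 transcript rows was deposited, with whole-number columns, which are treated as a score because 1 direction across libraries has no spread (SD 9.48e-05 natural log units, against 0.098 for the next direction, for rows above a mean of 2000), and normalized columns, a signal equal to them times 1 factor per library (0.9649 to 1.043). The log2 fold changes and p-values the authors deposited are named as theirs. The 357 unnamed rows held 0.422% to 0.517% of each total and were left out.

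Normalized values were summed per gene name to 15450 genes, and log2(value + 1) was fitted with limma-trend (limma 3.58.1, R 4.3.3) without covariates, adjusted by Benjamini-Hochberg over all genes. The pseudocount of 1 understates changes of low genes. A fold change is AAV-Sox11 over AAV-Control on that scale, with the SE of the fit. The values are not counts, so no count test was run. The fit was tested on simulated data. Transcript types, lengths and positions came from GENCODE M21 (GRCm38, the same coordinates as mm10), which matched all but 588 rows. Levels per kb divide each transcript by its length and are summed over the transcripts of a gene.

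The series description says control and Sox11 preparations of a letter shared a day, so the letters pair the libraries. Same-letter deviations correlated over genes at 0.002 (A), 0.793 (B) and 0.236 (C). Those of different letters ran from -0.876 (AAV-Sox11 B with AAV-Control C) to 0.198 (AAV-Sox11 A with AAV-Control C). Deviations within a group are tied to each other by the group mean, and the values lack the removed direction. These correlations can therefore neither show nor refute pairing. Named members are those passing the test, the 20 smallest p, a list by role, and the highest and lowest of each class; the genes named outside this rule are Chd4, Chd6, Setd7, Kdm3b, Arid2, Chd2, Kmt2d, the paralog pairs (compared also with coding rows only, added after the data were seen), Kdm7a and Bcl11b. Of the named members, 2 are not reported here. The members and lists were chosen with earlier results of these data known. The alternatives tried are a pseudocount of 10 or 0.5, a minimum mean of 50, other scalings, the replicate block, the most abundant transcript per gene, protein-coding rows only, 2 covariates and leaving out each library.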

Additional observations from a re-analysis of the deposited data

How the results depend on the processing

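Over the 16 alternatives the median log2 fold change of the chromatin genes ran from 0.02 (all genes -0.03, library total scaling) to 0.13 (all genes 0.09, protein-coding rows only). Of 49 named members, 35 kept their sign in every alternative that gave them a value, among them the 20 with the smallest p; the sign turned in some alternative for Arid1b, Dnmt3a, Dnmt3aos, Ezh1, Hdac2, Hdac3, Hdac5, Kdm6b, Kmt2a, Setd6, Sirt1, Suz12, Tet2 and Tet3. Chromatin genes passing the test were 0 higher and 0 lower, except 1 lower with library total scaling and 1 higher without AAV-Control B (0 to 1 over the libraries left out). Over all genes, 123 higher and 235 lower became 103 and 356 with library total scaling (34.4% and 22.4% of calls higher), 323 and 414 with the replicate block, 86 and 117 with protein-coding rows only, and 0 and 0 with the removed direction or the sex index as covariate. Leaving out each library gave 0 to 339 higher and 0 to 406 lower. Partner genes higher, 1 in the fit as reported, were 2 with a pseudocount of 10, with the replicate block and with protein-coding rows, 0 with library total scaling, the removed direction or the sex index, and 0 to 2 over the libraries left out. Partner genes lower, 2 as reported, were 1 with a minimum mean of 50 and with protein-coding rows, 0 with the removed direction or the sex index, and 0 to 1 over the libraries left out. Transcript rows lower, 1 as reported, were 2 with library total scaling, 3 with the replicate block, 0 with the removed direction, the sex index or protein-coding rows only, and 0 to 2 over the libraries left out. The replicate block changed no call of a chromatin gene. At an unadjusted p under 0.05, 16 chromatin genes were found in the fit as reported. The cause of these changes was not tested. Because 1 direction of replicate spread is missing from the values, adjusted p-values may be too small, and the depth of each gene is not known in reads.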
